A study of Mus musculus with 4 samples.

Results

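Secreted Wnt modulators and Wnt ligands were followed in mouse skin treated with MC903 (calcipotriol, a vitamin D analogue) or with its vehicle, ethanol. The set holds 10 genes: Sfrp1, Sfrp2, Sfrp4, Frzb, Dkk2, Dkk3, Wif1, Wnt5a, Wnt10b and Axin2. All 10 were found among the 18193 genes of the array, on 20 probe sets, and each gene was read on its probe set with the highest mean over the 4 arrays. The genes were picked with the differences between MC903 and vehicle on these same arrays in view, so their own values are a description and carry no test. Axin2 is neither secreted nor a ligand but an intracellular brake on the pathway.

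The skin came from female wild-type BALB/c mice that had been sensitised through the ear skin with ovalbumin, an egg-white protein, together with MC903, and had then been given ovalbumin by mouth. Between that oral challenge and a second one, MC903 was applied again in the MC903 group (2 arrays), while the vehicle group (2 arrays, labelled Control) received ethanol. The Control skin is therefore from mice that had met MC903 during sensitisation, and the comparison asks how skin differs after renewed treatment. The labels do not say whether each array is a separate animal, so the spread within a group may be technical only, and precision is limited by there being 4 arrays.

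Wnt proteins are secreted lipid-modified signals that bind Frizzled receptors together with LRP co-receptors. In the canonical branch this stabilises beta-catenin, which then switches on target genes with TCF/LEF factors, while other Wnts, Wnt5a among them, act mostly through branches that do not need beta-catenin. In skin, canonical Wnt signals drive hair follicle formation and the growth phase of the hair cycle. Secreted frizzled-related proteins and WIF1 bind Wnts outside the cell, whereas several Dickkopf proteins bind the LRP co-receptors.

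The promoters of 6 of the 10 genes were in the RefSeq promoter table (GRCm38.p6). The 250 bases before the start are shown for Sfrp2, Dkk2 and Wif1, whose signals differed most among the genes that were lower with MC903, and for Frzb, whose groups overlapped. They are written 5′ to 3′ on the gene's strand, and capitals mark the motifs searched on both strands: CTTTGA and CTTTGT, which hold the core bound by TCF/LEF factors, and the TATA box TATAAA.
Sfrp2, chr3:83766071-83766320, plus strand: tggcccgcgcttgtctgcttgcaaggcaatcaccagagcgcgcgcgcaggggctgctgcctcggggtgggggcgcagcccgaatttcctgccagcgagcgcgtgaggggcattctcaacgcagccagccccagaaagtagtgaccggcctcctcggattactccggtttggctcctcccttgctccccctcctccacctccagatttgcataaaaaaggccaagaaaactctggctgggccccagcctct
Dkk2, chr3:132085042-132085291, plus strand: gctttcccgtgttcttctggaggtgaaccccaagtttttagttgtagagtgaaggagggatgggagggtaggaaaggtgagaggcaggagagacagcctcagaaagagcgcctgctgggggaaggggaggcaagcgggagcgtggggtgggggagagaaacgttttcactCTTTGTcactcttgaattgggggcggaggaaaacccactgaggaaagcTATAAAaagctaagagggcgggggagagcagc
Wif1, chr10:121033754-121034003, plus strand: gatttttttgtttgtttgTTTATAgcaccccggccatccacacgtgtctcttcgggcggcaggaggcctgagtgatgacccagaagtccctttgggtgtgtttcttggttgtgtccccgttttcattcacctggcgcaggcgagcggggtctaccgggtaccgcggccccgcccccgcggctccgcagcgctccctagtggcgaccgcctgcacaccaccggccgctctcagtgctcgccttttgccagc
Frzb, chr2:80447397-80447646, minus strand: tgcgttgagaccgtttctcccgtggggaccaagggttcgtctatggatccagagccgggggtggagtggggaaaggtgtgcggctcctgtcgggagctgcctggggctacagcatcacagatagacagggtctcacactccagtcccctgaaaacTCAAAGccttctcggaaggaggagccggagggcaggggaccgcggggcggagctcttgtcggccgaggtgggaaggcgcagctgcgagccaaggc
CTTTGT lies 80 to 75 bases before the start of Dkk2, and CTTTGA lies on the opposite strand 95 to 90 bases before the start of Frzb. Thus 2 of the 6 promoters hold CTTTGA or CTTTGT, against 27.6% of the 32851 promoter windows of that length in the table. Dkk2 also has TATAAA 32 to 27 bases before its start, and Wif1 has it on the opposite strand 232 to 227 bases before, a motif held by 12.4% of all windows. The windows of Sfrp2, Wnt10b and Axin2 held none of the 3 patterns. The DR3 vitamin D response element was in 0 of the 6 windows and in 0.0396% of all windows, and its absence says only that these letters are not in this stretch. The promoter of Axin2 (chr11:108920099-108920348) had 69.2% G and C and 24 CpG dinucleotides, against medians of 52.4% and 6 over all windows.

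Signals were linear and had been scaled on each array to a trimmed mean of 500. Background was gauged from the TrpnX probe sets, array controls with no mouse target, which stood at 1.55 to 24.0. Differences below are of log2(signal + 16), MC903 minus Control, with the SE of the limma fit over all genes and n = 2 per group. That scale understates the differences of dim genes. For probe sets not used for a gene, the SE is that of a limma fit over all probe sets. Basal keratinocyte markers, which define the tissue, had summed signals of 80745 and 80963 in Control and of 88743 and 86083 in MC903. Over all 18193 genes limma called 0 at an adjusted p below 0.05, with 1241 higher and 1526 lower before adjustment. A prior variance that follows the signal gave 168 calls, or 0.923% of genes, and that count went to 15 without Control replicate 1, to 5 without Control replicate 2 and to 946 without MC903 replicate 2. With so few arrays, the smallest two-sided p of an exact permutation test is 0.333.

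Most of the set stood lower after MC903, and the frizzled-related genes stood on both sides. In 7 of the 10 genes both MC903 arrays lay below both Control arrays, in 2 (Sfrp1 and Sfrp4) both lay above, and for Frzb the groups overlapped. Over all genes, 28.2% lay below and 21.6% above in this way, 49.7% in all, and since the genes were chosen on this contrast the count supports nothing further. The median difference of the 10 was -0.72, against -0.04 over all genes. Both MC903 arrays were at least 2-fold lower than both Control arrays for Sfrp2 and Dkk2, as for 0.813% of all genes, and no gene of the set was at least 2-fold higher in all 4 pairings (1.16% of all genes).

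**Figure D1:**
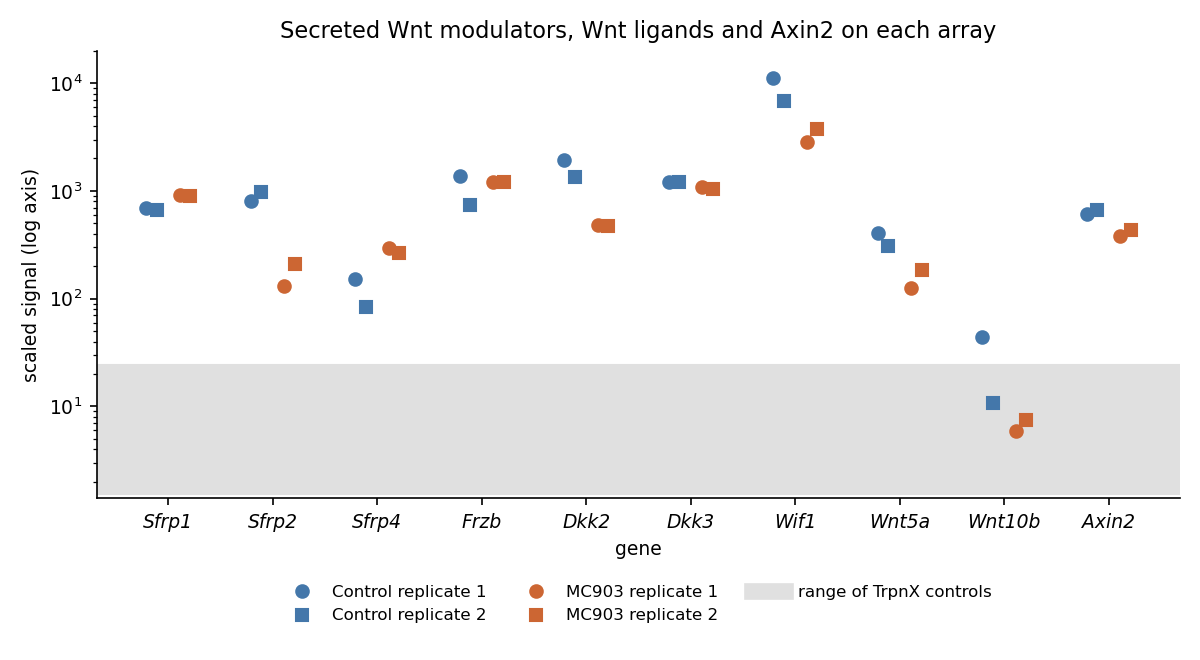
Scaled signal (log axis) of each gene on each of the 4 arrays, with Control in blue, MC903 in orange, replicate 1 as circles and replicate 2 as squares, and the range of the TrpnX controls in grey. Sfrp2, Dkk2, Wif1, Wnt5a and Axin2 are lower on both MC903 arrays, Sfrp4 and Sfrp1 are higher, Frzb overlaps, and 3 of the 4 signals of Wnt10b lie in the grey band.

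Among the secreted frizzled-related proteins, which carry a cysteine-rich domain like that of the Frizzled receptors, Sfrp2 differed most. Sfrp2, a Wnt modulator made by dermal fibroblasts, had signals of 805 and 974 in Control and of 132 and 210.3 in MC903. The groups were far apart, with a difference of -2.30 ± 0.27, a signal 4.93-fold higher in Control, and pairings from -2.74 to -1.86. Only 69 of the 18193 genes had a lower difference.

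Sfrp4, another frizzled-related protein, went the other way, with signals of 151 and 82.9 in Control and of 298 and 263 in MC903. Both MC903 arrays were above both Control arrays by 1.20 ± 0.30, or 2.30-fold. The gap between the Control arrays (0.75) was, however, about as large as the smallest of the 4 pairings (0.74). The difference was 0.83 without Control replicate 2 and 1.58 without Control replicate 1.

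Sfrp1, which binds Wnts and can also bind Frizzled receptors, stood at 695 and 661 in Control and at 908 and 900.5 in MC903. The arrays of a group lay within 0.07 of each other, and the difference of 0.41 ± 0.15 was 1.33-fold. Its 4 other probe sets differed by 0.29, 0.21, 0.13 and -0.00, and for 2 of them the groups overlapped, so the higher signal was not seen on every probe set.

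Frzb, the gene of the frizzled-related protein first found in cartilage, stood at 1388 and 743 in Control and at 1204 and 1202 in MC903. Both MC903 signals lay between the Control signals. Its difference of 0.24 ± 0.34 turned to -0.20 without Control replicate 2, and its second probe set gave 0.23, again with both MC903 signals between the Control signals.

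The Dickkopf genes differed in size. Dkk2, whose protein acts at the LRP co-receptors, stood at 1932 and 1339 in Control and at 482 and 471 in MC903. The MC903 arrays lay within 0.03 of each other and the difference was -1.72 ± 0.23, a signal 3.30-fold higher in Control. Only 95 genes had a lower difference.

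Dkk3, a divergent relative that does not bind LRP co-receptors in the way Dkk2 does, stood at 1201 and 1202 in Control and at 1090 and 1038 in MC903. The groups did not overlap, yet the difference was only -0.17 ± 0.15 and 35.6% of all genes had a lower one. Its second probe set, with signals of 1054 and 803 in Control and of 489 and 622 in MC903, gave -0.72 ± 0.24. How far the gene differed therefore depended on the probe set.

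Wif1, the Wnt inhibitory factor, binds Wnt proteins outside the cell through its WIF domain. Its signals were 11161 and 6793 in Control and 2823 and 3791 in MC903. The difference was -1.41 ± 0.32, or 2.65-fold, and both MC903 arrays lay below the lower Control array. The Control arrays were 0.71 apart, so that the pairings ran from -1.98 to -0.84.

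Of the Wnt ligands, Wnt5a, which acts mostly without beta-catenin and guides cell polarity and movement, stood at 405 and 310 in Control and at 126 and 185 in MC903. The difference was -1.13 ± 0.26, or 2.19-fold, with no overlap. Its 3 other probe sets differed by -0.59, -0.36 and -0.08, the last with overlapping groups at signals of 28.3 to 58.7, so the lower signal was seen on 3 of 4 probe sets and was smaller on the 2 that were not used for the gene.

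Wnt10b, a canonical ligand of the growing hair follicle, had signals of 43.8 and 10.7 in Control and of 5.96 and 7.48 in MC903. All but the signal of Control replicate 1 lay within the range of the TrpnX controls. Its difference of -0.82 ± 0.42 became -0.23 without that array and -1.40 without Control replicate 2, and -1.58 with a constant of 1 and -0.34 with 64 in place of 16, so no size can be given for it.

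Axin2 encodes a scaffold of the complex that destroys beta-catenin, and the gene is itself switched on by canonical Wnt signals, which makes it a common readout of the pathway. Its signals were 605 and 665 in Control and 383 and 431 in MC903. The difference was -0.62 ± 0.17, or 1.54-fold, with replicate gaps of 0.13 and 0.16. The second probe set, at 106 and 82.2 in Control and 41.2 and 75.4 in MC903, gave -0.60 ± 0.30.

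**Figure D2:**
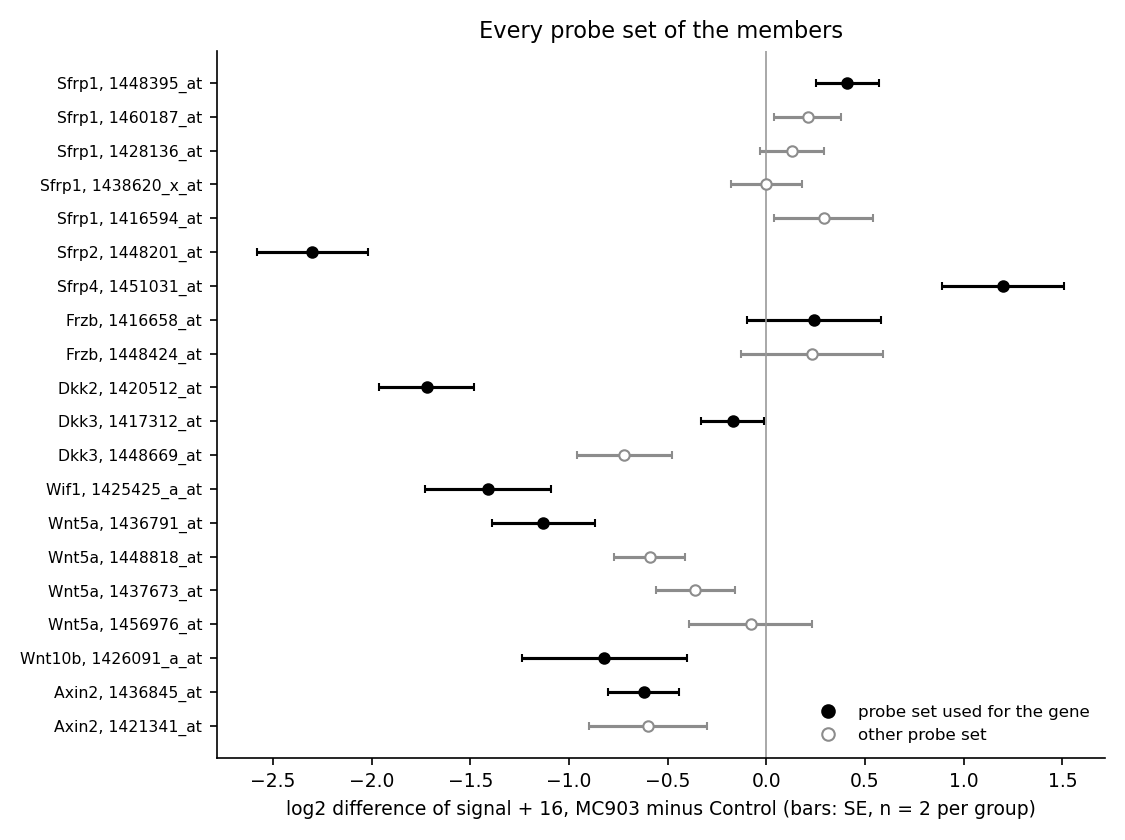
Difference of log2(signal + 16), MC903 minus Control, for each of the 20 probe sets, with the SE of a limma fit over all probe sets (n = 2 per group); filled points are the probe set used for the gene, open points the others. Of the 10 other probe sets 9 lie on the same side of 0 as the one used, and the exception is a probe set of Sfrp1 at -0.00.

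The genes also varied in how far their replicates agreed. In 7 of the 10 (Sfrp1, Sfrp2, Dkk2, Dkk3, Wif1, Wnt5a and Axin2) each of the 4 pairings was larger than the gap between the arrays of either group, 6 of them lower and 1 higher. Over all genes this held for 11.7% lower and 7.52% higher. Control replicate 1 was above Control replicate 2 for 7 of the 10 genes, and MC903 replicate 1 was above MC903 replicate 2 for 5. In the lower genes the lowest array was not always the same one. MC903 replicate 1 was lowest for Sfrp2, Wif1, Wnt5a, Axin2 and, within the TrpnX range, Wnt10b. MC903 replicate 2 was lowest for Dkk3 and, by only 0.03, for Dkk2.

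Outside the set, 83 of 85 other Wnt pathway genes were measured, listed by role. Earlier results of these data were known when the list was made, so its counts are a description. None of the 83 was called by limma, whose smallest adjusted p among them was 0.112. Before adjustment 21 of the 83 were lower and 3 higher at a p below 0.05, while of all 18193 genes 8.39% were lower and 6.82% higher. Both MC903 arrays lay below both Control arrays for 43 of the 83 (51.8%) and above for 8 (9.64%), against 28.2% and 21.6% over all genes, and the median difference was -0.30. With each array centred on its median these counts were 33 and 9, and the medians were -0.22 for the 83 and 0.04 over all genes. The shares over all genes were not counted under that centring. With the prior that follows the signal 2 were called, Nkd2 and Bambi, and neither was without Control replicate 1 or without Control replicate 2, while the calls came to 3 without MC903 replicate 1 and to 6 without MC903 replicate 2.

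Wnt target genes included the largest difference of these 83. Nkd2, which encodes a Dishevelled-binding antagonist, stood at 643 and 719 in Control and at 191 and 178 in MC903, a difference of -1.80 ± 0.16 (limma, adjusted p = 0.112, or adjusted p = 0.0219 with the prior that follows the signal). Bambi, a pseudoreceptor that dampens TGF-beta signals, stood at 875 and 957 in Control and at 268 and 342 in MC903, a difference of -1.55 ± 0.19 (adjusted p = 0.153, or 0.0321 with that prior). In all, 6 of 8 target genes were lower with no overlap and 0 higher, with a median of -0.75. With each array centred on its median, 5 were lower and 0 higher. The shares to set beside the uncentred counts of every role group are those over all genes, 28.2% lower and 21.6% higher with no overlap.

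Receptors and the proteins that set their turnover were lower with no overlap in 16 of 22 cases and higher in 2, with a median of -0.41, and none was called. With each array centred on its median, 13 were lower and 2 higher. Lgr5 and Lgr6 encode R-spondin receptors that mark stem cells of the hair follicle. Lgr5 stood at 688 and 617 in Control and at 355 and 247 in MC903 (-1.09 ± 0.23, limma, adjusted p = 0.208), and differed by -0.63 with probe sets averaged. Lgr6 stood at 1018 and 897 in Control and at 469 and 531 in MC903 (-0.91 ± 0.17, limma, adjusted p = 0.192).

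R-spondins, the secreted proteins that strengthen Wnt signals through these receptors, and norrin, a Frizzled ligand, made a group of 5. Of these 2 were lower with no overlap and 0 higher, and none was called. Rspo3 stood at 241 and 229 in Control and at 102 and 67.2 in MC903 (-1.34 ± 0.23, limma, adjusted p = 0.181), and differed by -0.54 with probe sets averaged. Rspo1 was low on MC903 replicate 1 only, with 238 and 215 in Control and 60.6 and 224 in MC903, and its groups overlapped (-0.84 ± 0.58). Leaving out that array brought the difference to -0.01, and leaving out the other MC903 array brought it to -1.66.

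The 17 other Wnt ligands were not shifted one way as a group, with a median of 0.10, 4 lower and 3 higher with no overlap, and 0 called. With each array centred on its median, 3 were lower and 4 higher. Several were dim, and 4 of the 17 had a mean signal below the highest TrpnX signal. The ligand at the median had signals of 8.09 to 15.5, all below that level. The higher ligands included a gene with both Control signals (5.85 and 19.0) below it. Wnt11, which acts mostly without beta-catenin, stood at 247 and 257 in Control and at 122 and 151 in MC903 (-0.82 ± 0.18, limma, adjusted p = 0.211). Wnt9a stood at 195 and 116 in Control and at 91.7 and 73.9 in MC903 (-0.76 ± 0.29, limma, adjusted p = 0.338), and differed by -0.42 without Control replicate 1 and by -1.10 without Control replicate 2. The 2 genes of ligand secretion differed little, Wls, the carrier of Wnts to the cell surface, by -0.32 ± 0.16 and Porcn, which attaches their lipid, by -0.14 ± 0.15, and neither was called.

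Inside the cell, 12 of 21 genes were lower with no overlap and 2 higher, with a median of -0.19, or 8 lower and 2 higher with each array centred on its median. Among those with a mean signal of at least 100, the TCF/LEF factors Lef1 and Tcf7l1 differed most, while another measured TCF factor differed by only -0.44. Lef1 stood at 165 and 204 in Control and at 50 and 75.3 in MC903 (-1.36 ± 0.24, limma, adjusted p = 0.187). Tcf7l1, a TCF factor that acts mostly as a repressor, stood at 486 and 405 in Control and at 209 and 239 in MC903 (-0.94 ± 0.18, limma, adjusted p = 0.197).

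The 8 other secreted Wnt inhibitors, the nearest kin of the set, had a median of -0.11, with 1 lower and 1 higher with no overlap and none called. Sfrp5, a close relative of Sfrp1, stood at 96.8 and 69.7 in Control and at 130 and 179 in MC903 (0.78 ± 0.25, limma, adjusted p = 0.289), and differed by 0.46 with probe sets averaged. Sost, the gene of sclerostin, stood at 28.5 and 31.1 in Control and at 3.29 and 4.92 in MC903, the MC903 signals lying within the range of the TrpnX controls (limma, adjusted p = 0.156). Its difference was -1.19 with the constant of 16, -2.61 with 1, -0.46 with 64 and -0.50 with probe sets averaged, so no size can be given for it. Groups overlapped for Sostdc1 and Dkkl1, with signals of 1155 to 2807, and for Notum, a Wnt-removing enzyme, at 92.1 to 240.3. Dkk1 stood at 23.5 to 42.3, and Dkk4 and Cer1 lay below the highest TrpnX signal on every array.

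**Figure D3:**
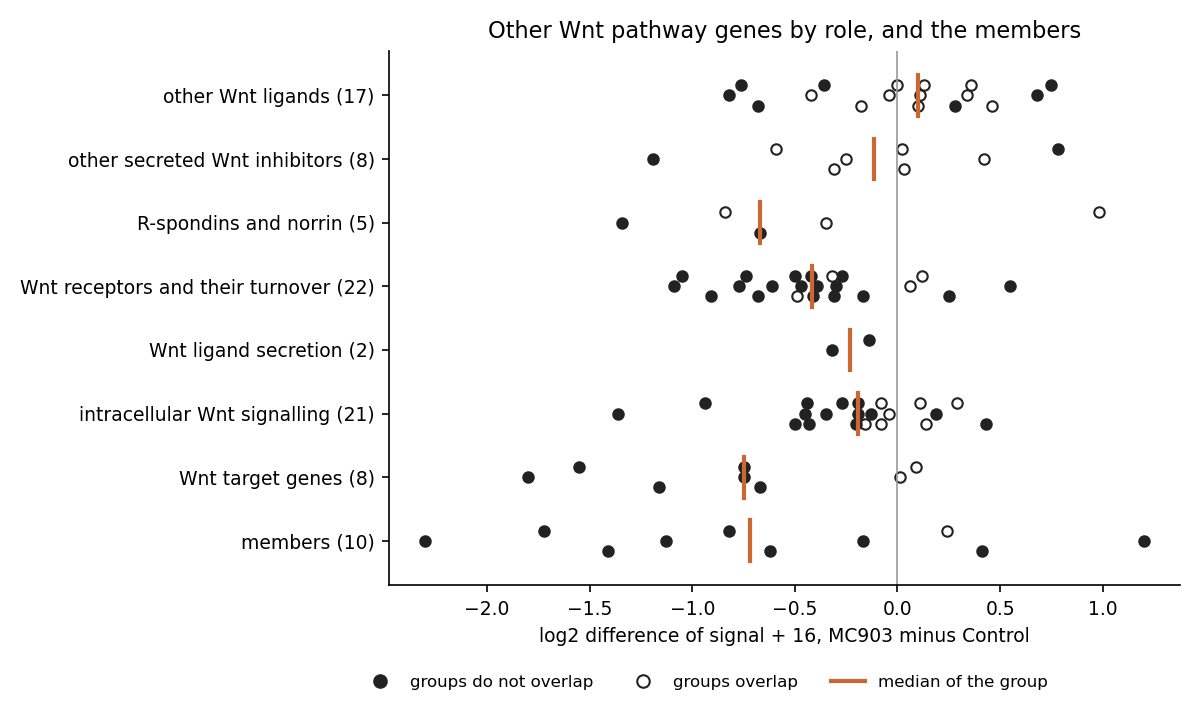
Difference of log2(signal + 16), MC903 minus Control, of the 83 other Wnt pathway genes by role and of the 10 genes of the set; filled points have groups that do not overlap, open points overlap, and orange bars are group medians. Medians run from -0.75 for target genes to 0.10 for other ligands, and the set itself spans -2.30 to 1.20.

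Markers of the skin's cell types were read on the same arrays, since in whole skin fewer cells of a type and less RNA per cell cannot be told apart. The shares to set beside the counts of every marker list are those over all genes, 28.2% lower and 21.6% higher with no overlap. Hair matrix and shaft genes were lower with no overlap in all 11 of the 11 measured (12 listed), with a median of -3.19. Their summed signals were 13897 and 25943 in Control and 2051 and 2073 in MC903. The shaft keratins of this list set both values, with differences from -5.20 (Krt33b) to -2.95 (Krt35). Its other genes differed less, Msx2 by -1.50, Dlx3 by -0.50, Foxn1 by -0.45 and Hoxc13 by -0.38. Dermal papilla markers, the fibroblasts at the base of the follicle, had a median of -0.37 over 6 of 8 listed, with 1 lower and 1 higher with no overlap. Their summed signals were 3428 and 2263 in Control and 1719 and 2089.8 in MC903. Fibroblast markers had a median of -0.20 over 8, with 4 lower and 0 higher, and summed signals of 91683 and 83925 in Control and of 77709 and 74135 in MC903.

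Bulge markers had a median of -0.57 over 5, with 3 lower and 0 higher and summed signals of 28927 and 28897 in Control and of 20804 and 19990.2 in MC903. Melanocyte markers were lower in 5 of 5, with a median of -1.28 and summed signals of 10054 and 7443 in Control and of 3467 and 4222 in MC903. Leukocyte markers were higher with no overlap in 7 of 8, with a median of 0.84 and summed signals of 11402 and 12490.0 in Control and of 16859 and 16170.0 in MC903. Markers of adipocytes and of mitosis were likewise higher with no overlap in 5 of 5 measured, with medians of 0.82 and 0.94. Summed signals of the adipocyte markers were 13164 and 11644 in Control and 17326 and 24344 in MC903, and those of the mitosis markers were 4102 and 4058 in Control and 10723 and 5651 in MC903. Both measured Schwann cell markers of 5 listed were lower, with a median of -0.64 and summed signals of 2896 and 1619 in Control and of 1101 and 1265 in MC903. Skeletal muscle markers, with summed signals of 60294 and 36383 in Control, stood at 11935 on MC903 replicate 1 and at 45799 on MC903 replicate 2. No measured marker was listed at 0 on any array, and of all these markers none lay within the TrpnX range on all 4 arrays. Some lay there on fewer arrays. Among these, Cd4, a higher leukocyte marker, lay there on 3 arrays (10.3, 12.8 and 18.0). Hhip, the higher dermal papilla marker, lay there on Control replicate 1 (7.64), and Krt33b on MC903 replicate 1 (17.9). The part of these marker shifts in the lower signals of Sfrp2, Dkk2, Wif1, Wnt5a and Axin2 was not tested.

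**Figure D4:**
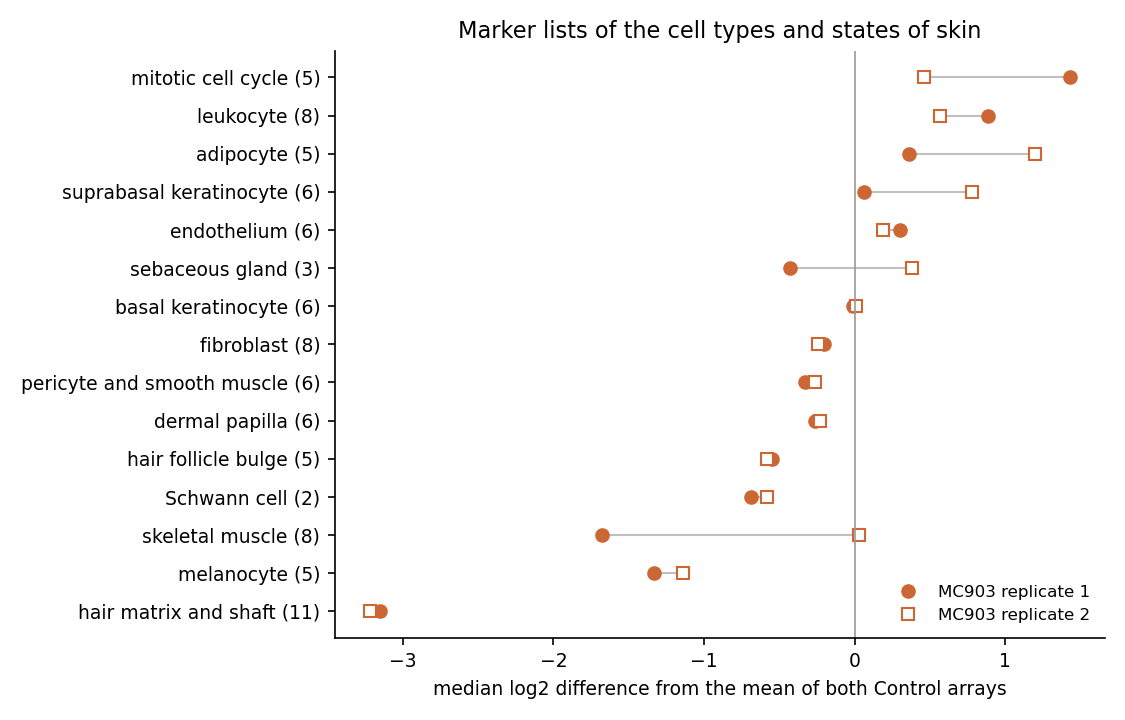
Median log2 difference of each marker list on each MC903 array from the mean of both Control arrays, with the number of measured genes in brackets; circles are MC903 replicate 1 and open squares MC903 replicate 2. Hair matrix and shaft markers lie lowest on both arrays (-3.15 and -3.22), fibroblast and dermal papilla markers lie between -0.26 and -0.20, and skeletal muscle markers differ most between the arrays (-1.68 and 0.03).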

How the data were processed

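Per the labels' protocols, 200 ng of total RNA from treated skin was biotin-labelled with a 3′ kit. The table, as deposited by the authors, gives linear intensity for 45101 probe sets on 4 arrays. The sources used here do not say how scans became intensity values. After removal of 2% of probe sets at either end, every array had a mean of 500, and 0 pairs of arrays were identical.

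Names came from the platform annotation, with symbols updated by Entrez gene ID through the RefSeq table of GRCm38.p6. Of them, 64 controls, 932 with several symbols and 9160 unnamed here were left out. Each of 18193 genes took the probe set with the highest mean log2(signal + 16). MC903 was compared with Control by limma 3.58.1 under R 4.3.3 (2 residual and 2.32 prior degrees of freedom, Benjamini-Hochberg adjustment over all genes, threshold 0.05), a fit tested on simulated data. No further normalization or filter was used. Missing list genes (such as Kremen2 and Tcf7) had no probe set that carried their symbol alone.

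The genes of the set and all lists were chosen with earlier results of these data known. Every gene of the set is named. Of the other pathway genes those named are any called, the 2 with the largest absolute differences per role with a mean signal of at least 100, and all secreted inhibitors. Alternatives were quantile normalization, median centring, added constants of 1 and 64, leaving out the dimmest 25% or 50% of genes, averaging probe sets, trend and robust priors, a block for the replicate number, and each array left out in turn. Choosing probe sets by linear signal, and leaving out arrays under the trend prior, were added after seeing the data.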

Additional observations from a re-analysis of the deposited data

How the results depend on the processing

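Over all genes, limma's 0 calls became 3 with median centring, 70 with a constant of 64, 36 and 190 without the dimmest 25% and 50% of genes, 12 with averaged probe sets, 168 with the trend prior and 5 with probe sets chosen by linear signal. With quantile normalization, a constant of 1, the robust prior or any array left out they remained 0. Under the trend prior with an array left out they were 15 and 5 without the Control arrays and 227 and 946 without MC903 replicate 1 and 2. Calls among the 83 other Wnt pathway genes went from 0 to 1 with a constant of 64 or without the dimmest 25% (71 genes left), to 2 without the dimmest 50% (43 left) or with the trend prior, and from 0 to 6 under the trend prior with an array left out. The cause was not tested. The replicate numbers pair nothing in the labels. Deviations of same-numbered arrays correlated at -0.06 across genes, and the replicate block gave 0 calls over all genes and 0 in the pathway.

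With quantile normalization, median centring or averaged probe sets, 9 genes of the set again had groups that did not overlap; other constants cannot change this count, and leaving out an array (9 to 10) can only keep or raise it. With all arrays kept, 43 of 50 recomputed differences of the set moved by no more than the spread between replicates. The other 7 were Sfrp1 at 0.47 with quantile normalization and 0.49 with median centring, Dkk3 at -0.09 with median centring, Wnt10b at -1.58 with a constant of 1, and, with averaged probe sets, Sfrp1 (0.21), Dkk3 (-0.45) and Wnt5a (-0.54). Averaging could move only the 5 genes with several probe sets. Wnt10b at -0.34 with a constant of 64 counted among the 43 only because its replicates spread widely (SD 0.58). With an array left out, Frzb (-0.20 to 0.68) and Wnt10b (-1.40 to -0.23) moved by over 1.5 times, and Frzb changed sign. Other named genes that changed sign were Dkk1 (-0.03 with averaged probe sets, -0.25 to 0.31 with an array left out), Cer1 (-0.10 with averaged probe sets, -0.61 with probe sets chosen by linear signal), Dkk4 (-0.33 to 0.38 with an array left out) and Dkkl1 (-0.51 to 0.02). Notum (-1.06 to -0.13) and Sostdc1 (-0.61 to -0.01) kept their sign but moved by over 1.5 times with an array left out, and Porcn came to -0.04 with quantile normalization.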
